A study of Mus musculus with 4 samples.

Results

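Kinesins are motor proteins that move along microtubules, and their genes were taken here by symbol, as every gene of the deposited table whose symbol begins with Kif followed by a digit or by c. The table held 42 such genes among 23420 gene symbols. By known function, 15 of them were placed in a spindle class (cell division), 17 in a transport class (cargo along microtubules), 6 in a cilium class and 4 in neither, the last being Kif26a, Kif26b, Kif12 and the pseudogene Kif4-ps. RNA came from pachytene spermatocytes of wild-type C57BL/6 male mice of 23 weeks of age, which were sorted from the testis by their DNA content and cultured for 24 h. The Ctrl group had 2 libraries of cells cultured in the solvent DMSO, and the AZ20 group had 2 libraries of cells given 10 µM AZ20, an inhibitor of the kinase ATR. Each library was made from 15000 cells, and the study's methods state that cells of a mouse were divided between the treatments, so that the replicate numbers form pairs. Sorting gives a population enriched for pachytene spermatocytes, not a pure one, and in such bulk RNA more cells of a type and more RNA per cell cannot be told apart.

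A kinesin couples ATP hydrolysis in its motor domain to steps along a microtubule, and the rest of the protein decides what is carried. In dividing cells kinesins push the spindle poles apart, align chromosomes and build the central spindle, whereas kinesins of other families carry vesicles, organelles and the building blocks of cilia and flagella. Spermatocytes store transcripts during the long pachytene stage ahead of their meiotic divisions and of the later shaping of the sperm, and at that stage the X and Y chromosomes are held silent, a state known as meiotic sex chromosome inactivation (MSCI). The question asked of the data was which kinesin genes differed in RNA level between AZ20 and Ctrl, and whether spindle and transport kinesins differed in this. Of the 42 genes, Kif4 is X-linked and the other 41 are autosomal.

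The authors' values were TPM, which count transcripts per unit of length within a fixed total, so that levels of different genes may be compared. Recovered from the TPM, the depth was 14058254 and 15973820 reads on genes for Ctrl and, somewhat deeper, 20398014 and 18655163 for AZ20. Tests were made with limma on log2(TPM + 1) over the 10316 genes that had a group mean above 1 TPM. To be called, a gene had to change 2-fold or more and have an adjusted p (Benjamini-Hochberg) under 0.05. Summed TPM of 12 pachytene markers lay between 11670 and 11930 in the 4 libraries. Of Sertoli cell markers, Sox9, Wt1 and Rhox5 were at 0 in every library, and the summed TPM of all 10 lay between 6.85 and 12.8. Summed TPM of 7 Leydig markers lay between 0.866 and 2.32, with 6 of them at 0. Macrophage markers (7 of 8 in the table) summed to 5.02 and 1.15 in Ctrl and 8.35 and 6.75 in AZ20, with C1qa at 0, and 6 myoid markers to 4.17 and 2.98 in Ctrl and 6.09 and 7.26 in AZ20, with Des at 0. Both of these lists were thus low but higher in each AZ20 library than in either Ctrl library. Round spermatid markers (10 genes) summed to 382 and 161 in Ctrl and to 798 and 263 in AZ20, higher in replicate 1 than in replicate 2 of each group and higher in AZ20 within each pair. In the fit blocked on replicate number, 3 of them had a limma adjusted p under 0.05 (Prm1 0.000766, Tnp2 0.00766 and Tnp1 0.0279). With no fold minimum, 4.61% of all genes were higher at that threshold in the blocked fit. Aif1 of the macrophage list (0.00457) and Dazl of the spermatogonia list (0.0337) also passed it there. In the fit without the block, Prm1, Tnp2 and Tnp1 had limma adjusted p of 0.615, 0.771 and 0.808, and the groups of each overlapped. Spermatogonia markers (10 genes) summed to 252 and 331 in Ctrl and 388 and 528 in AZ20, most of which was Dazl, while Stra8, Dmrt1 and Sohlh1 were at 0. That sum was higher in both AZ20 libraries, as was Dazl itself (244 and 309 in Ctrl, 375 and 513 in AZ20). Uchl1, the next in level, overlapped (7.60 and 20.1 in Ctrl, 11.2 and 13.8 in AZ20). The low Gfra1 was higher (0.15 and 0.38 in Ctrl, 1.11 and 0.95 in AZ20). The part of such other cells in the kinesin values below was not tested.

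Of the 42 kinesin genes, 27 passed the expression filter and were tested. Exactly 1, Kif4, was called higher in AZ20, where 2.28% of all genes tested were, and 0 were called lower, against 0.0485% of all genes. At an unadjusted limma p under 0.05 there were 4 higher (Kif4, Kif22, Kif20b and Kif5b) and 0 lower, beside 8.03% and 1.13% of all genes. AZ20 libraries lay above both Ctrl libraries for 10 of the 27 and below both for 5, beside 26.4% and 11.7% of all genes. Only genes with a mean TPM above 1 in some group could be among these 27, and Kif4 and Kif19a passed through their AZ20 level alone.

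**Figure D1:**
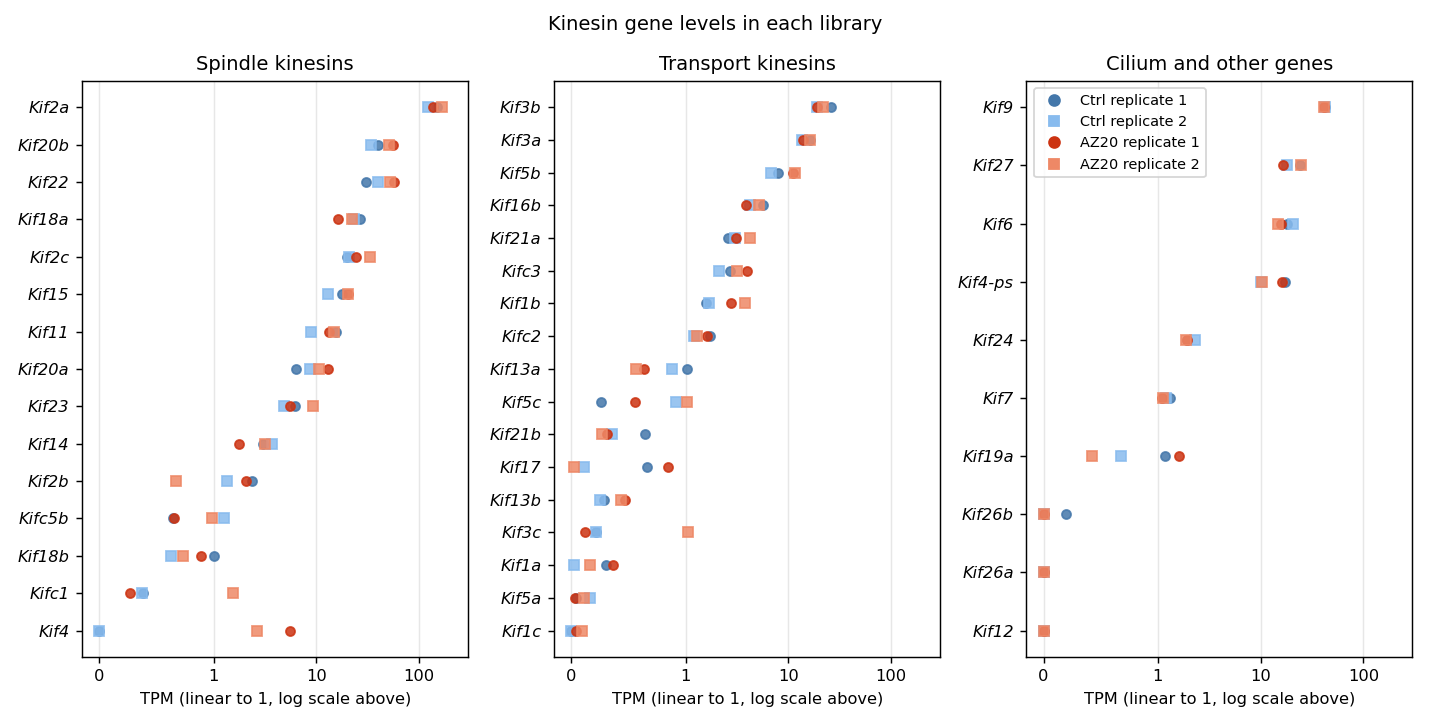
TPM of each kinesin gene (rows, ordered by the Ctrl mean within each panel) in the 4 libraries, on an axis that is linear up to 1 and logarithmic above. Kif2a stands above every other kinesin at 121 to 166 TPM, and Kif4 sits at 0 in Ctrl and at 5.52 and 2.65 in AZ20.

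Kif4 is a chromokinesin, which binds chromosome arms with condensin and, with Prc1, sets the length of the central spindle. The gene (ENSMUSG00000034311.3) lies on the plus strand at chrX:100625737-100727214 of GRCm38. Its TPM was 0 in both Ctrl libraries, 5.52 in AZ20 replicate 1 and 2.65 in AZ20 replicate 2. The groups did not overlap, and the AZ20 libraries themselves differed by a factor of 2.08. The reads behind these values were 0 and 0 in Ctrl and 378 and 164 in AZ20 at the transcript length that makes them whole (4712 bases), or 189 and 82 if that length is 2356 bases, since the TPM alone do not show a common factor. Set against 3 reads in each Ctrl library, the mean AZ20 level was at least 69.1-fold higher, or at least 34.5-fold with the shorter length. On the log2(TPM + 1) scale, which understates changes of low genes, the change was 2.29 (SE 0.38, limma adjusted p = 0.0269, higher in 2 of 2 pairs, by 2.70 and 1.87). The call did not hold when genes below the expression filter were added (limma adjusted p = 0.114), nor when any library was left out. Each of the latter fits leaves 1 library in a group, so that a lost call there may not be particular to Kif4. The change was 2.29 without either Ctrl library, and 1.87 and 2.70 without AZ20 replicate 1 and 2. In the fit blocked on replicate number, the SE was 0.37 and the limma adjusted p was 1.58e-05. Since limma draws on the spread of all genes tested, that p does not measure how far the pairs of Kif4 agree. Kif4 was also the only kinesin called in the blocked fit, beside 4.11% of all genes called higher and 0.223% lower. In that fit it was the only kinesin with an adjusted p under 0.05 when no fold was required, beside 4.61% higher and 0.31% lower.

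The change of Kif4 lay in the middle of those of X-linked genes, of which 341 were tested and 216 (63.3%) were called higher. The corresponding share of autosomal genes was 0.101% (10 of 9936), and 0.0503% (5) were called lower. Its change of 2.29 ranked 197 among the 341, whose median change was 2.61, and only 3 autosomal genes had a larger change. Of the X-linked genes tested, 114 had 0 reads in both Ctrl libraries, as Kif4 did, and by AZ20 TPM Kif4 ranked 53 among these, whose median was 3.38. Those 114 passed the filter through their AZ20 level alone. X-linked genes that stayed under the filter in both groups were not tested. The 63.3% and the ranks therefore hold only for genes that passed. The factor of 2.08 between the AZ20 libraries of Kif4 was exceeded by 47 X-linked genes, and the median over X-linked genes was 1.06. The 5′ end of Kif4 overlaps the X-linked gene Pdzd11 on the opposite strand over 832 of the 5514 bases in Kif4 exons. The library kit does not mark strand, so reads there cannot be assigned to either gene. Pdzd11 itself was at 9 and 3 reads in AZ20 and 0 in either Ctrl library, far fewer than Kif4.

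**Figure D2:**
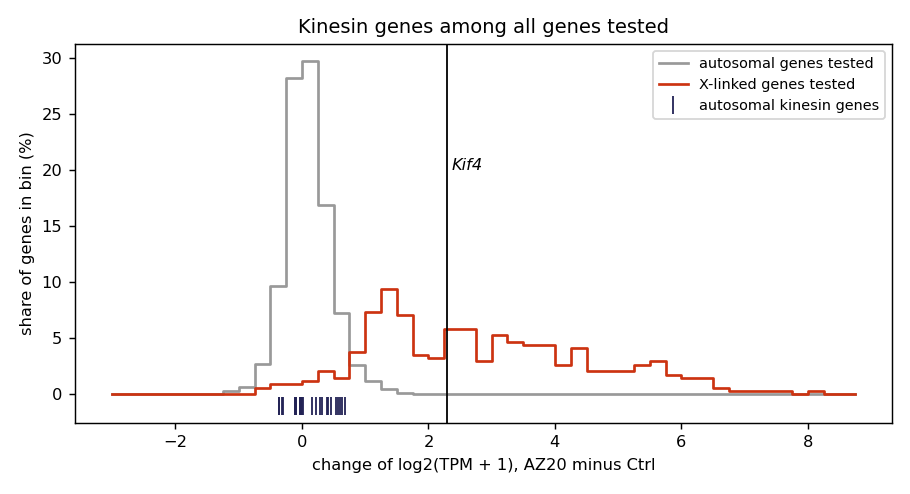
Share of genes (vertical axis, in percent per bin) by change of log2(TPM + 1), AZ20 minus Ctrl, for the 341 X-linked and 9936 autosomal genes tested. The line marks Kif4 at 2.29, within the spread of X-linked changes, and the ticks below the axis mark the 26 autosomal kinesin genes tested, which lie between -0.36 and 0.68.

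A transcribed processed copy of Kif4 is annotated on an autosome as Kif4-ps (ENSMUSG00000092054.3, chr12:101145614-101149758, plus strand), and it was measured as a gene of its own. A processed copy arises when a spliced transcript is written back into the genome, so that it lacks the introns of its parent gene. The annotated Kif4-ps transcript aligned to Kif4 from the first coding base of Kif4 onwards with 79.9% identity over 3704 alignment columns (684 mismatches and 61 gap columns). The first 120 coding bases of Kif4, on chrX from 100626469 of GRCm38 and taken with its copy from the GENCODE transcripts, show how the sequences differ, with the 23 differing columns in capitals:

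Kif4: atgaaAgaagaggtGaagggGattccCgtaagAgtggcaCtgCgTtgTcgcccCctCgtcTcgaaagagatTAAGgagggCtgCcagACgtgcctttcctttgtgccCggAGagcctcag

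Kif4-ps: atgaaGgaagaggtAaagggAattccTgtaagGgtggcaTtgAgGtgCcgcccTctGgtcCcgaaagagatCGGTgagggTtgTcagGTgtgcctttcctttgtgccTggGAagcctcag

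Of the 684 mismatches, 380 fell at the last base of a Kif4 codon, 159 at the first and 145 at the middle base. The alignment held 42 gaps, of which 4 had a length that is a multiple of 3. Read from its first ATG, the Kif4-ps transcript ran through 1221 codons without a stop to its annotated end, whereas its other frames held 71 and 97 stops. That transcript has 3665 bases, fewer than the chr12 span of the gene, so the frame is that of the annotated model. The Kif4 coding sequence runs through 1231 codons before its stop. None of the 3555 windows of 150 bases, the length of a read, was identical between the transcripts (0 windows, with at least 10 differences in each and a median of 29), and the longest identical run was 64 bases. The authors kept uniquely aligned reads, so the levels of these genes can be read separately.

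Kif4-ps had TPM of 17.3 and 10.1 in Ctrl and 16.2 and 10.3 in AZ20 (639, 427, 862 and 494 reads). It was thus well above 0 in Ctrl, where Kif4 had no read, and its groups overlapped almost fully. The change was -0.03 (SE 0.33, limma adjusted p = 0.991), with a 95% interval from -0.82 to 0.75. Of the TPM of both genes together, Kif4 made up 0% in each Ctrl library, 25.4% in AZ20 replicate 1 and 20.5% in AZ20 replicate 2. Replicate 1 was above replicate 2 in both groups for Kif4-ps, as for the summed round spermatid markers given above, and the part of those cells in its level was not tested.

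**Figure D3:**
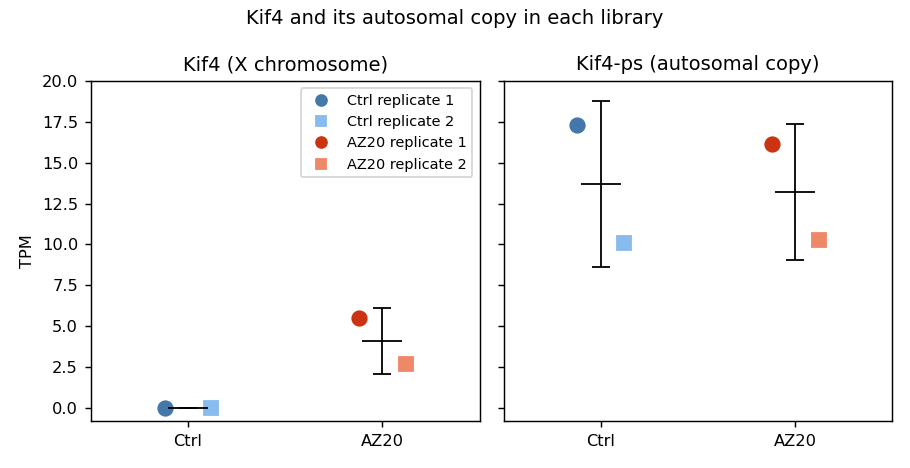
TPM of Kif4 (left) and Kif4-ps (right) in each library, with the mean (horizontal bar) and SD (whiskers, n = 2) of each group. Kif4 is at 0 in Ctrl and 4.08 ± 2.03 in AZ20, while Kif4-ps is at 13.7 ± 5.08 in Ctrl and 13.2 ± 4.18 in AZ20.

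Among spindle kinesins, the kinesin-13 family does not walk but takes microtubules apart at their ends. Its member Kif2a was the most abundant kinesin in every library, with TPM of 149 and 121 in Ctrl and 136 and 166 in AZ20. It alone made up 26.7% to 30.3% of all kinesin TPM, and its groups overlapped (change 0.16, limma adjusted p = 0.880). Of its 6393 exon bases, 1229 are shared with the antisense gene Dimt1. Kif2c, known as MCAK, which corrects faulty attachments at centromeres, had TPM of 19.7 and 20.8 in Ctrl and 24.2 and 33.2 in AZ20. Its AZ20 libraries were above its Ctrl libraries, but the change of 0.47 (SE 0.23) did not pass (limma adjusted p = 0.655). Kif2b was low, between 0.671 and 2.36 TPM, and higher in replicate 1 than in replicate 2 of either group.

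Next in the spindle class were Kif20b and Kif22, whose libraries overlapped in both groups. In Ctrl, Kif15 and Kif11 also overlapped as neighbours in the order of levels, as did Kifc5b and Kif18b. In AZ20, Kif15 and Kif18a overlapped, as did every neighbour from Kif23 downwards. Kif22, or Kid, is a chromokinesin that pushes chromosome arms towards the spindle equator. It had TPM of 30.3 and 39.4 in Ctrl and 57.1 and 51.7 in AZ20. Its libraries separated fully and its ratio of means, 1.56, was among the higher ones of the spindle class. The change of 0.64 (SE 0.21) had an unadjusted p of 0.0202 by limma and did not pass after adjustment over all genes (adjusted p = 0.388). Kif20b, which acts in the last steps of cytokinesis, had TPM of 39.3 and 34.0 in Ctrl and 56.0 and 50.8 in AZ20. It was the most even of these between pairs (0.50 and 0.56), with a change of 0.53 (SE 0.19, limma adjusted p = 0.452).

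Kif20a and Kif23 build the central spindle, the former by bringing the chromosomal passenger complex and the latter as part of centralspindlin. Kif20a had TPM of 6.40 and 8.64 in Ctrl and 13.1 and 10.6 in AZ20, without overlap (change 0.60, SE 0.26, limma adjusted p = 0.555). It shares 1271 of 4338 exon bases with the antisense gene Cdc23, so that part of its signal is uncertain. Kif23, at 4.83 to 9.19 TPM, overlapped between groups, as did Kif11, the kinesin-5 that drives the poles apart, at 8.83 to 15.6 TPM. Kif15, which can stand in for Kif11, had TPM of 17.8 and 12.9 in Ctrl and 20.5 and 20.3 in AZ20 (change 0.40, limma adjusted p = 0.723).

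The spindle kinesins with negative values were Kif18a, Kif14 and Kif2b. Kif18a, a kinesin-8 that damps chromosome movements at the metaphase plate, had TPM of 26.7 and 23.1 in Ctrl and 16.3 and 22.4 in AZ20. Its libraries did not overlap, by a margin far smaller than the gap between its AZ20 libraries (change -0.36, SE 0.24, limma adjusted p = 0.760). Kif14, which recruits the kinase Cit to the midbody, had TPM of 3.02 and 3.73 in Ctrl and 1.76 and 3.16 in AZ20. Its groups overlapped (change -0.36, SE 0.32, limma adjusted p = 0.830). The 3 spindle genes below the filter were Kif18b, Kifc1 and Kifc5b. Kifc1 had 9, 10 and 9 reads in 3 libraries and 47 in AZ20 replicate 2, which stood apart. Kifc1 and Kifc5b are 98.2% identical over 1469 alignment columns, and 8.18% of the windows of 150 bases did not differ, so that their separate values are uncertain.

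**Figure D4:**
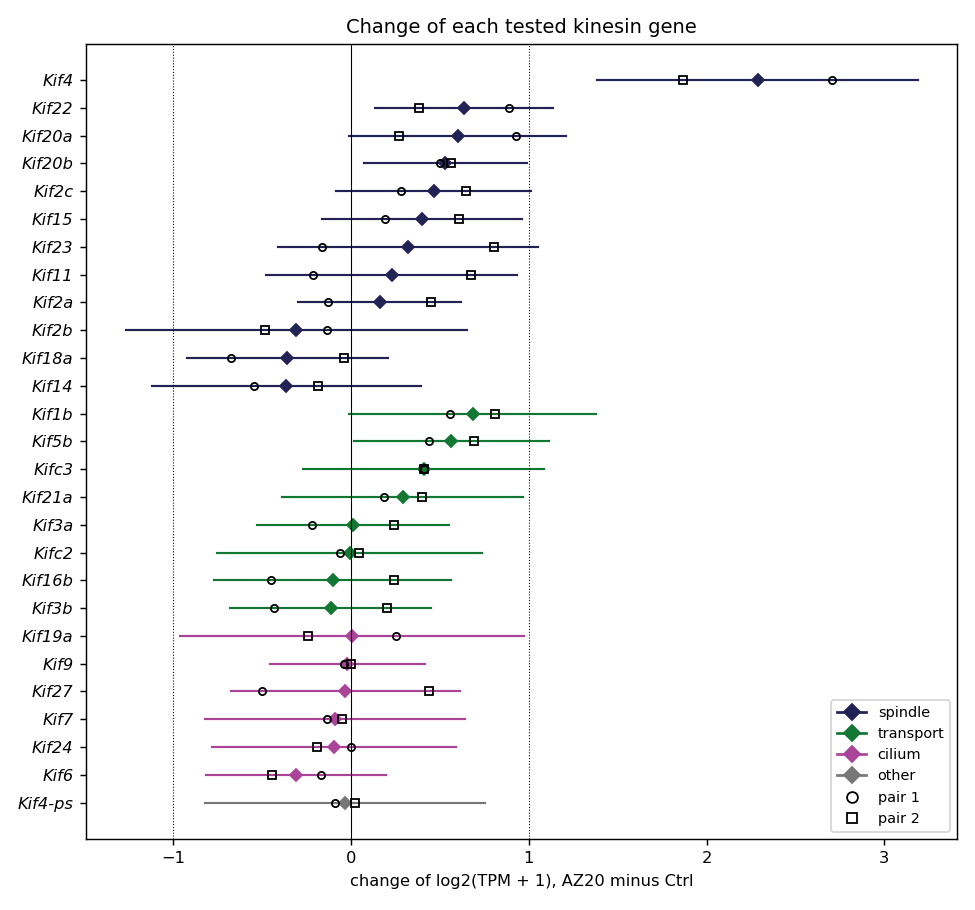
Change of log2(TPM + 1), AZ20 minus Ctrl, of the 27 kinesin genes tested, as the limma estimate (diamond) with its 95% interval (line) and the value in each replicate pair (open circle and square). Dotted lines mark a 2-fold change, which Kif4 alone exceeds in its estimate and in each pair.

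Promoter sequences of 33 of the 42 genes, from 250 bases before to 50 bases after the start site, were available from RefSeq on GRCm38.p6. They were searched on both strands for TTTGAA, known as the cell cycle genes homology region (CHR) in genes expressed late in the cell cycle, and for CCAAT, which often lies near it. The search was made after the Kif4 promoter had been seen. TTTGAA occurred in 11 of 14 spindle promoters (78.6%), 1 of 11 transport promoters (9.09%) and 1 of 5 cilium promoters, whereas 20.2% of 27025 genes in the table had it. Both motifs occurred in 8 of 14 spindle promoters (57.1%), in 0 of 11 transport promoters and in 7.97% of all genes. Kif4 itself is counted in both spindle shares. So are Kifc1 and Kifc5b, whose windows around the motif differ in few bases, so that the promoters counted are not independent. A window of 30 bases around the motif, with the motif in capitals, is given for tested spindle kinesins. Shown are those in which it began within 20 bases of the start site, with Kif4 beside genes whose change did not pass. The start sites are those of RefSeq, and the Kif4 window lies downstream of the GENCODE gene start given above, inside the annotated gene. All are read along the strand of the gene, so that TTCAAA is the motif on the opposite strand:

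Kif4 (chrX:100626072-100626101, plus strand): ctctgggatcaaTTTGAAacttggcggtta

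Kif22 (chr7:127042420-127042449, minus strand): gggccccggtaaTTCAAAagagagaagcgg

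Kif20b (chr19:34922353-34922382, plus strand): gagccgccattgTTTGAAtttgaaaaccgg

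Kif23 (chr9:61946780-61946809, minus strand): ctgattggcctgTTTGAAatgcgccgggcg

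Kif11 (chr19:37376351-37376380, plus strand): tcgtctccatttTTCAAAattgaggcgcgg

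Kif15 (chr9:122951050-122951079, plus strand): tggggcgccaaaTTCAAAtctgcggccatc

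Kif20b holds a second copy directly behind the one in capitals. Kif4 thus shared the motif with autosomal spindle kinesins that had reads in every Ctrl library. Kif2a and Kif18a had no match in their windows. Among the 8 tested spindle genes with the motif, changes ranged from -0.36 for Kif14 to 2.29 for Kif4, and Kif4 was the only one called. A match describes the letters of the window and not whether a protein binds there.

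Among transport kinesins, the highest levels were those of Kif3b and Kif3a, which pair as the kinesin-2 motor of intraflagellar transport. Kif3b had TPM of 25.8 and 18.9 in Ctrl and 18.8 and 21.9 in AZ20. Kif3a had TPM of 16.2 and 13.5 in Ctrl and 13.7 and 16.1 in AZ20. The libraries of each overlapped between groups, the pairs moved in opposite directions, and the changes were -0.12 and 0.01 (limma adjusted p = 0.940 and 0.996). Kif5b, the widely expressed heavy chain of conventional kinesin, followed with TPM of 7.82 and 6.79 in Ctrl and 10.9 and 11.6 in AZ20. Its groups separated with little spread within either, and the change of 0.56 (SE 0.23) had an unadjusted p of 0.0450 by limma but did not pass after adjustment (adjusted p = 0.533).

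Kif1b, which carries mitochondria and synaptic vesicle precursors, had TPM of 1.58 and 1.70 in Ctrl and 2.79 and 3.74 in AZ20. This was the largest change among autosomal kinesins, 0.68 (SE 0.29), without overlap and in the same direction in both pairs (limma adjusted p = 0.554). A voom fit of its recovered reads with the replicate block gave an adjusted p of 0.0391, yet its change there, 0.96 on the log2 scale, was under 2-fold. Kifc3, a minus end motor, had TPM of 2.71 and 2.12 in Ctrl and 3.93 and 3.14 in AZ20 (change 0.41, limma adjusted p = 0.775). Kif21a did not overlap either (change 0.29, SE 0.29).

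After Kif3b, the only other negative changes of the transport class were those of Kif16b and Kifc2. Kif16b, a motor of early endosomes, had TPM of 5.62 and 4.24 in Ctrl and 3.85 and 5.19 in AZ20 (change -0.10). Kifc2 had TPM of 1.73 and 1.21 in Ctrl and 1.62 and 1.29 in AZ20 (change -0.01). Both overlapped between groups. The other 9 transport genes, all under the filter, were Kif13a, Kif5c, Kif21b, Kif17, Kif13b, Kif3c, Kif1a, Kif5a and Kif1c, and none reached a group mean of 1 TPM. Of these, Kif17, a kinesin-2 also known from spermatids, had 26 reads in Ctrl replicate 1 and 48 in AZ20 replicate 1 but 5 and 1 in the other two libraries, so that it separated the replicate numbers rather than the treatments. Kif3c had 15, 17 and 12 reads in 3 libraries and 94 in AZ20 replicate 2, and over 2617 of its 7406 exon bases it overlaps the antisense gene 1110002L01Rik.

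The cilium class was detected, and all 6 of its members were tested. The libraries also held the round spermatid markers given above, and the part of those cells in the levels of this class was not tested. Kif9 and Kif6 are both kinesin-9 motors of the motile axoneme. Kif9 had TPM of 42.2 and 41.9 in Ctrl and 41.1 and 41.8 in AZ20 (change -0.02), the next level after Kif2a in Ctrl, and its 95% interval ran from -0.46 to 0.42. Kif6 had TPM of 18.0 and 20.6 in Ctrl and 15.9 and 14.9 in AZ20, without overlap (change -0.31, SE 0.21, limma adjusted p = 0.773). Kif27 varied more within groups than between them, at 24.0 and 17.9 in Ctrl and 16.6 and 24.6 in AZ20 (change -0.03).

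The other cilium genes were low. Kif24, which acts at centrioles, had TPM of 1.93 and 2.31 in Ctrl and 1.93 and 1.89 in AZ20 (change -0.10). Kif7, a regulator of Hedgehog signalling at the cilium tip, had TPM of 1.31 and 1.19 in Ctrl and 1.11 in each AZ20 library (change -0.09). Kif19a, which limits cilium length, had TPM of 1.18 and 0.682 in Ctrl and 1.60 and 0.422 in AZ20 (change 0.01), again with replicate 1 above replicate 2 in both groups. Of the 4 genes in no class, Kif26a and Kif12 were at 0 in every library and Kif26b had 3 reads, all in Ctrl replicate 1.

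The classes may be compared by their medians, with the reserve that genes are not replicates and that these medians carry no test. Over the 12 spindle genes tested the median change was 0.36 (0.32 without Kif4), over 8 transport genes 0.15, over 6 cilium genes -0.06 and over all 10316 genes 0.07. The spindle median differed between the pairs, 0.03 in pair 1 and 0.51 in pair 2, and so did the transport median, 0.06 and 0.32, while over all genes the medians were 0.08 and 0.09. A positive change in both pairs was seen in 6 of 12 spindle genes, 4 of 8 transport genes, 0 of 6 cilium genes and 36.1% of all genes. The transport median was 0.01 without Kif5b. Quantile normalization shifted the median over all genes by -0.14, to -0.07. Under it the spindle median was 0.10 over 13 genes and the transport median -0.16 over 9, which is 0.17 above and 0.09 below that of all genes. These sets differ from those of the main fit, since Kifc5b (-0.31) and Kif13a (-0.50) passed the filter after normalization. The transport median thus changed sign under this scaling, with Kif13a added to the set. AZ20 lay wholly above Ctrl for 6 of 12 spindle, 4 of 8 transport and 0 of 6 cilium genes, beside 26.4% of all genes, and wholly below for 1, 0 and 4 of them, beside 11.7%.

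As summed TPM, spindle kinesins amounted to 318 and 281 in Ctrl and to 353 and 388 in AZ20 (300 ± 26.5 and 371 ± 24.7, SD, n = 2 each). The AZ20 libraries were the higher ones, also without Kif2a, at 170 and 160 in Ctrl and 217 and 223 in AZ20. The summed spermatogonia list given above was likewise higher in both AZ20 libraries, but most of that sum was Dazl. Stra8, Dmrt1 and Sohlh1 of that list were at 0 in every library, while the low Gfra1 was higher in AZ20. That sum thus follows 1 gene and does not give the level of a cell type. The 9 round spermatid markers tested had a median change of 0.67, above that of the spindle kinesins. The part of other cell types in the spindle sums was not tested. Transport kinesins summed to 67.5 and 54.3 in Ctrl and 62.2 and 70.9 in AZ20. Cilium kinesins summed to 88.6 and 84.6 in Ctrl and 78.2 and 84.7 in AZ20. The groups overlapped in both of these classes. The ratio of spindle to transport TPM, which does not depend on how a library is scaled, was 4.72 and 5.18 in Ctrl and 5.68 and 5.47 in AZ20. Without Kif2a it was 2.51 and 2.95 in Ctrl and 3.49 and 3.14 in AZ20, so that in either form the AZ20 libraries were above the Ctrl libraries. The exact permutation test of this ratio gave a two-sided p of 0.333, which is the smallest that 2 libraries against 2 allow, so that no such test could pass 0.05 here.

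**Figure D5:**
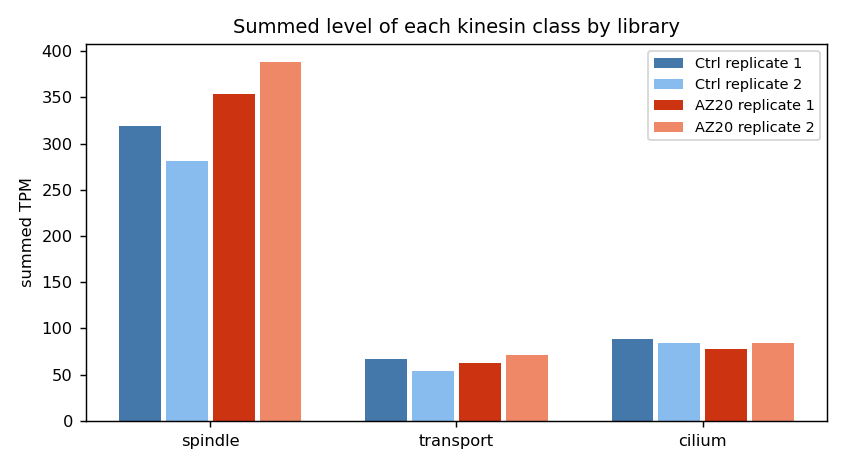
Summed TPM of the spindle (15 genes), transport (17 genes) and cilium (6 genes) kinesins, with 1 bar per library and bars starting at 0. Spindle sums are 318 and 281 in Ctrl and 353 and 388 in AZ20, and the sums of the other classes overlap between the groups.

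Partners of kinesins were taken as 5 lists, of which 74 genes were tested. Of these, 1 was called higher and 0 lower, beside 2.28% and 0.0485% of all genes tested. Of kinesin accessory genes, 8 of 10 were tested and 0 were called, with the 2 lowest changes at Trak2 (-0.34) and Klc4 (-0.29) and the 2 highest at Kifap3 (0.25) and Trak1 (0.15). Of 16 central spindle and passenger genes 0 were called, and Prc1, the partner of Kif4, was steady at 179 and 164 in Ctrl and 162 and 181 in AZ20. The 2 highest changes of that list were those of Cit (0.70) and Cep55 (0.49), and the 2 lowest those of Nusap1 (-0.27) and Tpx2 (-0.13). Of 9 condensin and topoisomerase genes 0 were called, between -0.17 for Ncapd2 and 0.51 for Ncaph, with Ncaph2 at -0.13 and Ncapg at 0.09. Of 20 intraflagellar transport genes 0 were called, between -0.28 for Ift122 and 0.47 for Wdr19, with Ift46 at -0.14 and Traf3ip1 at 0.35.

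Of 21 dynein and dynactin genes, which form the motor for the opposite direction, 1 was called higher and 0 lower. This was Dynlt3, a light chain of dynein that is also X-linked. Its TPM was 1.24 and 0 in Ctrl and 92.7 and 71.3 in AZ20 (change 5.78, SE 0.40, limma adjusted p = 0.000275), and the groups lay far apart. The call was lost with a pseudocount of 0.01. Without either AZ20 library that group has 1 library left, so that the call could not be judged there. Others of that list with large changes were Dynll2 (0.70), Dctn5 (-0.41) and Dync1i1 (-0.31), none of which passed. Among the motors and partners tested, the called genes were thus Kif4 and Dynlt3, both X-linked. These lists were chosen with earlier results of these data known, and Dynlt3 is the only Dynlt gene in them. That both called genes are X-linked therefore describes the chosen lists and is no test. Of all X-linked genes tested, 63.3% were called higher.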

How the data were processed

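RNA-seq was done on 4 libraries of sorted pachytene spermatocytes, 2 Ctrl and 2 AZ20, grouped by the sample labels. According to the submitters' processing notes and the study's methods, paired reads of 150 bases were trimmed (Trimmomatic 0.39) and aligned to GRCm38 (STAR 2.5.4b), and unique alignments were counted on refGene genes (featureCounts 2.0.1). The authors then deposited TPM computed from those counts, 1 column per library. Labels and methods give different culture temperatures (34 and 32 °C) and different HiSeq instruments. TPM remove depth, fix each column to 1000000 in sum and make a large rise of some genes lower all others slightly. The 92 rows without a gene symbol were left out.

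Whole reads were recovered from the deposited TPM for 16855 of 16857 genes above 0, although a factor common to the reads of a gene in all libraries is not visible in TPM. Log2(TPM + 1) was fitted with limma 3.58.1 (R 4.3.3) with an intensity trend for the 10316 genes with a mean TPM above 1 in either group, and p-values were adjusted over all of them. The fit was also run on simulated data with known changes. Same-numbered libraries deviated together from their group means (r = 0.229 over 10316 genes), and the methods give the pairing. The fit reported has no term for the replicate number. An alternative fit blocked on it called 424 genes higher and 23 lower in place of 235 and 5, with Kif4 the only kinesin in either. P-values measure the spread between 2 libraries per group, which limma moderates with the spread of all genes tested.

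Positions are those of GENCODE M21, on GRCm38 as are the files, completed by RefSeq. Of the symbols, 118 could not be placed. Transcripts were aligned with blastn. Sums, medians and sequence searches were made in Python 3.11.15 with pandas 2.3.3 and numpy 2.4.6. All kinesin genes are named. Values per library are given for called and X-linked genes, for the 3 highest genes of each class and for the largest changes of the others, 2 in each direction. Kinesins, classes, partner and marker lists were chosen with earlier results of these data known. Alternatives were other pseudocounts (0.1 and 0.01), other expression filters, quantile normalization, the block, no trend, no fold minimum, leaving out each library and, chosen after seeing the data, voom on recovered reads and leaving out Kif4.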

Additional observations from a re-analysis of the deposited data

How the results depend on the processing

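Kif4 was the only kinesin called in the fit reported and in each of 8 other settings. No kinesin was called (0 genes by limma) without the expression filter, where the Kif4 change was 2.29 with an adjusted p of 0.114 over 16857 genes, nor with a filter at a mean TPM above 5, which Kif4 does not pass, nor without any library (0 kinesins in each of these 4 fits). Without a library the Kif4 change ranged from 1.87 to 2.70, with 4 limma adjusted p-values from 0.0791 to 0.218. Without either AZ20 library 0 of all genes were called, and without Ctrl replicate 1 or 2 there were 184 and 158 higher, against 235. The lone library is then assumed to vary like the other group. With the other pseudocounts the change of Kif4 was 5.30 (0.1) and 8.58 (0.01). With the replicate block it was 2.29 (limma adjusted p = 1.58e-05), and the pairing changed no call among kinesins or their partners, though it moved the calls over all genes from 235 higher and 5 lower to 424 and 23. The calls lower over all genes were 1 without the expression filter, 1 with voom and 0 to 1 without a library. The median change of transport kinesins, 0.15, was -0.16 under quantile normalization and -0.11 to 0.34 without a library, the lowest without Ctrl replicate 2. That of spindle kinesins was 0.10 to 0.46 over all alternatives. Each median covers the genes that passed the filter in its setting, for spindle kinesins 9 to 15. Transport kinesins numbered 8 in the fit reported, 9 under quantile normalization and without Ctrl replicate 2, and 10 without AZ20 replicate 1. Kif13a (-0.50 and -0.34) entered the sets of 9. Kif3c (0.75) and Kif5c (0.39) entered the set of 10 through AZ20 replicate 2. Of the kinesin partners, 1 gene (Dynlt3) was called, 0 with a pseudocount of 0.01 and 0 to 1 without a library. Apart from the settings' own construction, the cause of these shifts was not tested. With 2 libraries per group, 0 reads of Kif4 in Ctrl limit its level there to about 3 reads per library.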
